A study of Homo sapiens with 4 samples.

Results

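The genes described here are 76 protein-coding genes of homeobox families that lie outside the HOX clusters, out of 20037 protein-coding genes in the RefSeq table for GRCh38.p14. They were chosen by symbol alone, as every LHX, NKX, BARHL, BARX, DLX, EMX, OTX, GBX, VSX, IRX, PITX, ISL, TLX, PBX, MEIS, POU3F, POU4F or POU6F gene with a number directly after the family name, together with the sine oculis homeobox family. A gene was counted as having a peak where the summit of a peak lay in the gene span or within 5 kb of it. In suspended cells 20 of the 76 genes had such a peak (26.3%, Clopper-Pearson 95% interval 16.9 to 37.7), where 28.6% of all protein-coding genes did. In attached cells 4 of 76 had one (5.26%, 1.45 to 12.9), against a background of 1.86%. Both backgrounds lie inside the members' intervals. By gene span the suspended background lies inside the members' interval in each class, with the widest gap under 5 kb (26.9%, 11.6 to 47.8, against 16.0%). The attached share rests on 4 genes. Its background lay inside the members' interval in each class of span set out below. Among the cuts by span, it fell just below the interval only for all spans of at most 20 kb together, a limit chosen after seeing the data. Backgrounds also lay below the interval in 3 counts made without a limit on span. With only the higher-scoring attached peaks the background was 0.988%, and for a peak in both lists 1.36%, each against 4 of 76 members (1.45 to 12.9). Among genes with a suspended peak it was 4.74%, against 4 of 20 members (5.73 to 43.7). All of these counts rest on the same 4 genes.

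The binding data come from H1703 cells, an established human lung squamous carcinoma line, that overexpressed the ETS-family transcription factor SPIB. Chromatin immunoprecipitation with sequencing (ChIP-seq) used the anti-FLAG M2 antibody, and the cells were either attached or suspended. Attached and suspended cells gave 1 ChIP library each, with 1 input library of DNA that was not immunoprecipitated. All 4 libraries came from SPIB-overexpressing cells, and the protocol label names 24 h of suspension for each of them, so the conditions were told apart by the condition label. The filtered ChIP libraries held 21108364 (attached) and 20766909 (suspended) tags, with 15878452 and 21437074 tags in the inputs. The authors' lists held 462 attached and 9024 suspended peaks, and with 1 ChIP library a condition there is no replicate check and no p-value. Peak lists measure no expression, so the squamous identity of the cells was not checked here.

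Homeobox genes encode transcription factors that bind DNA through a homeodomain. The families described here set up regional and cell identity in the embryo: many OTX, EMX, DLX, LHX, ISL and POU genes act in the developing brain, eye and spinal cord, NKX genes in brain, lung, heart and gut, and PBX and MEIS proteins as partners of HOX and other homeodomain proteins. Most of these genes are silent in most adult tissues, and many lie in broad gene-poor regions. SPIB itself recognises DNA around the ETS core GGAA.

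The promoters that carry the sites closest to a gene start are shown first, because the position of the summit can be read against their letters. RefSeq windows of 300 bases, from 250 bases before a gene start to 50 after it (GRCh38.p14, the assembly that hg38 names), were listed for 53 of the 76 genes and for 15 of the 20 with a suspended peak. Capitals mark each GGAA on either strand (TTCC on the printed one) and, in LHX3, the joined left and right parts of the REST element. The suspended summit lay inside the window of ISL2 (chr15:76336523-76336822, plus strand) and LHX3 (chr9:136205079-136205378, minus strand). These are 2 of 68 member windows (2.94%, 0.358 to 10.2), near the 3.67% of 22183 windows of protein-coding genes with a suspended summit. The windows of BARHL1 (chr9:132582356-132582655, plus strand) and POU4F2 (chr4:146638643-146638942, plus strand) are printed beside them because these genes were called in both lists with the peak upstream.
ISL2: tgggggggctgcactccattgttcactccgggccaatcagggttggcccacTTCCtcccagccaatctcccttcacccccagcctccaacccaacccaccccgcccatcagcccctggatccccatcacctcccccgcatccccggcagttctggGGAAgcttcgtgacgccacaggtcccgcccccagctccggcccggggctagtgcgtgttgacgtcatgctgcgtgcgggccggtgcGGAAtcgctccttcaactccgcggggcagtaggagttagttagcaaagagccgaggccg
LHX3: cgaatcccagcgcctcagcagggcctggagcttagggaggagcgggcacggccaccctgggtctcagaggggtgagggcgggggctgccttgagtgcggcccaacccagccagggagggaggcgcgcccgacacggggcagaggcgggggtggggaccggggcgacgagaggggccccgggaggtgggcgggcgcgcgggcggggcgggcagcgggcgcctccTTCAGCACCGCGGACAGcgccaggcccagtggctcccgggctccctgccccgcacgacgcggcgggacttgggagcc
BARHL1: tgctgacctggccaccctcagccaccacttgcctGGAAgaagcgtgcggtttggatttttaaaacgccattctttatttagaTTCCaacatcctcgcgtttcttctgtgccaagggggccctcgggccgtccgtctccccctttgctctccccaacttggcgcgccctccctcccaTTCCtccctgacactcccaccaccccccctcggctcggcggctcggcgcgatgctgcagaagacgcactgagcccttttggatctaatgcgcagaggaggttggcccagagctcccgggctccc
POU4F2: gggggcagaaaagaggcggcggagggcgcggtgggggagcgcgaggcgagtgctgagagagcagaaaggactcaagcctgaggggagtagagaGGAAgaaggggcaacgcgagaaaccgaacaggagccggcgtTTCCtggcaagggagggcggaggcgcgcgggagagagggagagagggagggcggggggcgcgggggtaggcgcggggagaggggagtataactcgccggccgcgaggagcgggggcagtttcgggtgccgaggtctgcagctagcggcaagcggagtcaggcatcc

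In ISL2 the suspended summit lay 165 bp before the gene start, and 32.5 bp from the centre of the longer ETS string GAGGAAGT, which reads as its complement in the printed strand. Of the 68 windows of member genes this was the only one with GAGGAAGT (1.47%), against 2.64% of 22183 windows of protein-coding genes. GGAA itself was found in 89.7% of member windows and 95.2% of all, and AGGAAG in 33.8% and 33.5%, so neither set these promoters apart. In LHX3 the suspended summit lay 34 bp before the start and 15 bp from the centre of TTCAGCACCNNGGACAG, which joins the left and right parts of the element bound by REST, a repressor of neuronal genes. The LHX3 window held no GGAA on either strand. The left part, TTCAGCACC, occurred in 3 member windows (4.41%), of which 2 belong to different starts of LHX3 and 1 to SIX6, and in 0.352% of all windows. The right part, GGACAG, was in 20.6% of member windows and 21.1% of all, and the homeodomain core TAATTA in 4.41% and 3.39%. The joined element was searched after its parts had been seen. All searches covered both strands, the 3 ETS strings overlap one another, and a match is a description of the letters and not a bound site.

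Gene length moves the chance of holding a peak, and these genes are short, with a median span of 6522 bp against 24115 bp for all protein-coding genes. The shortest is NKX2-4 (2162 bp). Among genes under 5 kb, 7 of 26 members had a suspended peak (26.9%, 11.6 to 47.8), where 16.0% of all protein-coding genes of that span did. From 5 to 20 kb it was 7 of 34 (20.6%) against 24.7%, from 20 to 100 kb 4 of 11 (36.4%) against 31.0%, and over 100 kb 2 of 5 against 41.9%. With the members' mix of spans, the whole table's shares come to 23.8%, or 18.1 of 76 genes. The suspended background thus lies within the members' interval in each class of span. In attached cells the members with a peak were 2 of 26 under 5 kb (0.946 to 25.1%, background 1.31%) and 2 of 34 from 5 to 20 kb (0.72 to 19.7%, background 1.22%). Both of these intervals hold the background. Together, 4 of the 60 members with a span of at most 20 kb had an attached peak (6.67%, 1.85 to 16.2), against 1.25% of 9023 protein-coding genes of that span, a background just below the interval. In suspended cells the same count was 14 of 60 (23.3%, 13.4 to 36.0) against 21.6%. With the members' mix of spans the attached share of the whole table is 1.49%, or 1.13 of 76 genes. The limit of 20 kb for this count was chosen after seeing the data, and 3 of the 4 attached peaks have an FDR above 50%. The median FDR over all attached peaks was 100%. No longer member had one, with 0 of 11 from 20 to 100 kb (background 1.87%) and 0 of 5 over 100 kb (3.46%), which allows shares of up to 28.5% and 52.2%.

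**Figure D1:**
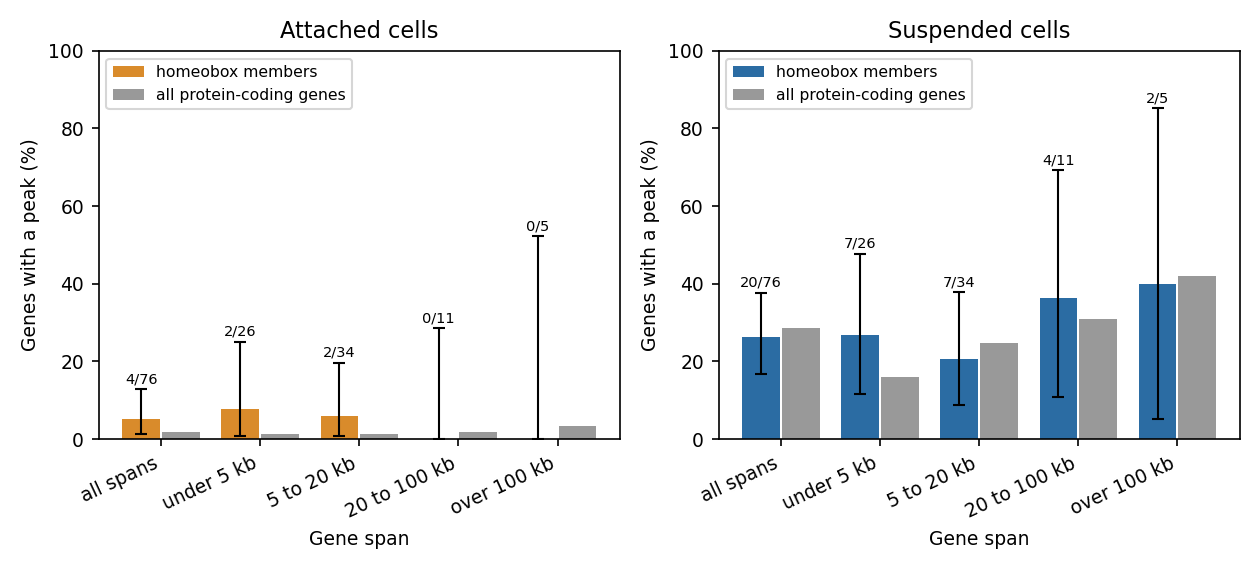
Percent of genes that held a peak or had one within 5 kb, by gene span, for the 76 homeobox genes (coloured bars, with exact 95% binomial intervals and counts above) and for all protein-coding genes (grey bars), in attached (left) and suspended cells (right). In suspended cells the members stood at 26.3% beside 28.6% of all genes, and the grey bars lie inside the members' intervals in each class of span.

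Counts of genes with a suspended peak are given for some of the classes only, beside the 28.6% of all protein-coding genes. Of the LIM genes (LHX and ISL) 4 of 10 had one (12.2 to 73.8%), and of the TALE genes (IRX, PBX and MEIS, named for extra residues in the homeodomain) 3 of 13 (5.04 to 53.8%). The ANTP class, which holds the NKX, DLX, BARX, BARHL, EMX, GBX and TLX genes, had 5 of 31 (5.45 to 33.7%). Within that class DLX had 3 of 6, BARHL 1 of 2 and NKX 1 of 14, and none of the BARX, EMX, GBX and TLX genes had one. None of the 7 OTX, PITX and VSX genes, of the PRD class, had a peak, which allows a share of up to 41.0%. Each of these class intervals holds the background of 28.6%, and no difference between classes or families was tested.

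Suspended cells held 28 peaks at the 20 genes, and no peak counted for more than 1 member. Their median fold, the authors' ratio of ChIP signal to local background, was 9.23 (8.19 to 11.7, from order statistics), beside 8.67 at all peaks of protein-coding genes. They held 8 to 55 tags with a median of 16, and were 147 to 738 bp wide with a median of 268.5 bp. The medians at all peaks of protein-coding genes were 17 tags and 279 bp. The false discovery rate (FDR), which MACS obtains by exchanging ChIP and input, was at most 5% for 23 of the 28 and at most 1% for 6. Of the 6564 suspended peaks at protein-coding genes, 5131 had an FDR of at most 5%. No count over all peaks is given for the 1% limit or for low tags. As many as 10 of the 28 rested on 11 tags or fewer, so single peaks are imprecise. Most genes, 15 of 20, had 1 peak; 5 of 76 had at least 2 (6.58%, background 8.32%) and 2 had at least 3 (2.63%, background 2.33%).

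**Figure D2:**
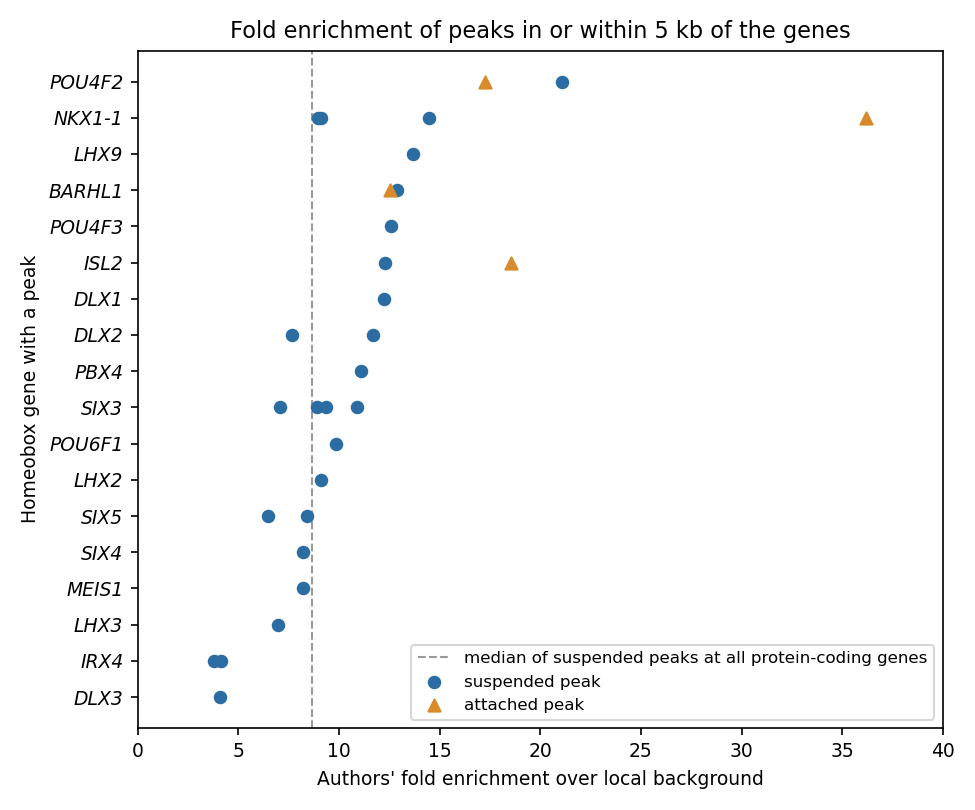
The authors' fold enrichment of each peak at 18 of the 20 homeobox genes with a peak, suspended peaks as circles and attached peaks as triangles. The dashed line is the median fold of suspended peaks at all protein-coding genes, 8.67. POU4F2 has the highest suspended fold (21.07) and NKX1-1 the highest attached fold (36.19), and DLX3 and IRX4 lie at about 4. Folds are relative to each list's own background and show no change between lists.

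The 4 genes with an attached peak were NKX1-1, POU4F2, BARHL1 and ISL2, and each also had a suspended peak. Among the 20 genes with a suspended peak, 4 thus had an attached one (interval 5.73 to 43.7%), where 4.74% of the 5733 protein-coding genes with a suspended peak did. All 4 attached summits lay outside the gene and before its start. Over all protein-coding genes 39.2% of 380 attached gene and peak pairs lay outside the gene (members' interval 39.8 to 100%). An attached summit lay within 1 kb of either gene end at 2 of the 76 members (2.63%, 0.32 to 9.18), against 0.809% of all genes. Over all 462 attached peaks the median FDR was 100%, and 25 peaks had an FDR of at most 5%. The attached FDR was 0% at NKX1-1, 53.91% at BARHL1, 78.95% at POU4F2 and 100% at ISL2. NKX1-1 is therefore the only member with an attached peak at an FDR of at most 5%, and the absence of a gene from the attached list does not show that SPIB was absent there.

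NKX1-1 is an NK-family homeobox gene on chromosome 4, 1402932 to 1406442, on the minus strand. Its attached peak, at 1410426 to 1410749, held 32 tags (Poisson 95% interval 21.9 to 45.2) with a fold of 36.19, the rank 4 fold of the 462 attached peaks. The overlapping suspended peak, at 1410394 to 1410834, held 55 tags (41.4 to 71.6) with a fold of 14.45. Both summits lay upstream, 4177 and 4135 bp before the gene start, and 42 bp from each other. Tags divided by the depth of the ChIP library stood at a ratio of 1.75 (exact interval 1.11 to 2.79), suspended to attached, but the suspended peak was called 1.36 times as wide, and per bp of peak the ratio was 1.28. Suspended cells had 2 weaker peaks there as well, of 9 tags (fold 8.94) 4848 bp upstream and of 10 tags (fold 9.1) 2336 bp past the other end, the latter also within 5 kb of UVSSA.

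POU4F2 encodes a POU factor that directs retinal ganglion cells, and lies on chromosome 4, 146638893 to 146642474, on the plus strand. Its attached peak, at 146636899 to 146637217, held 22 tags (13.8 to 33.3) with a fold of 17.24. The suspended peak, at 146636902 to 146637264, held 40 tags (28.6 to 54.5) with a fold of 21.07, rank 59 of the 9024 suspended folds. The peaks covered nearly the same bases, 319 and 363 bp, with summits 18 bp apart and about 1.8 kb before the gene start. The ratio of depth-scaled tags was 1.85 (1.07 to 3.26), and 1.62 per bp.

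BARHL1, a gene of hair cells in the ear and of cerebellar neurons, lies on chromosome 9, 132582606 to 132590252, on the plus strand. The attached peak, at 132582062 to 132582400, held 23 tags (14.6 to 34.5) with a fold of 12.54, and the suspended peak, at 132582016 to 132582270, held 18 tags (10.7 to 28.4) with a fold of 12.87. The summits were 437 and 468 bp before the gene start. The ratio was 0.795 (0.405 to 1.54), and 1.06 per bp, and since the peaks were called 339 and 255 bp wide and share 209 bp, the tags are not of the same bases. The attached peak reached into the printed promoter window and the narrower suspended one ended before it.

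ISL2, a LIM homeobox gene of motor neurons and other projection neurons, lies on chromosome 15, 76336773 to 76342475, on the plus strand. Both lists held a peak of 16 tags (9.15 to 26.0) before its start, but not at the same place. The attached peak ran from 76335868 to 76336107, with a fold of 18.54, and the suspended one from 76336451 to 76336763, with a fold of 12.29. They were 343 bp apart, with summits 792 and 165 bp before the start.

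Over these genes, 3 of 4 attached peaks shared 1 bp or more with a suspended one, where 45.5% of all 462 attached peaks did. The median ratio of depth-scaled tags at the 3 sites was 1.75 beside 1.36 at all 210 shared sites. Per bp it was 1.28 beside 1.1. POU4F2 had the highest of the 3 ratios, with a suspended peak 1.14 times as wide as the attached one. Intervals cover counting error only.

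**Figure D3:**
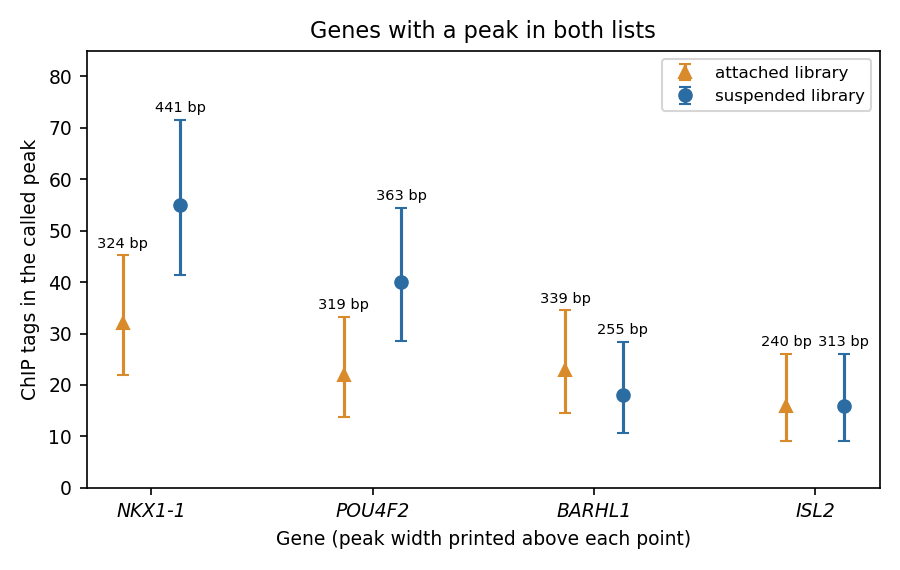
ChIP tags in the called peak (points) with exact Poisson 95% intervals (bars) at the 4 genes with a peak in both lists, for the attached and the suspended library, with the peak width above each point. Suspended tags were higher at NKX1-1 (55 against 32) and POU4F2 (40 against 22) with overlapping intervals, and the ISL2 peaks held 16 tags each at different places.

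The sine oculis family encodes factors that act with EYA proteins in the development of eye, ear, kidney and muscle. SIX3, a gene of the forebrain and eye on chromosome 2, 44941702 to 44946071, had 4 suspended peaks, the most of any member. In order along the chromosome they held 31, 18, 27 and 19 tags, with folds of 10.87, 9.36, 8.91 and 7.05 and FDRs of 0.53, 3.66, 0.6 and 3.9%. The first lay 2261 bp outside the gene and the others inside it, and the non-coding genes SIX3-AS1 and LINC01833 lay within 5 kb of all 4. SIX5, on chromosome 19, 45764785 to 45769252, had 2 peaks inside the gene, of 12 tags (fold 8.43) and 18 tags (fold 6.47), in a stretch where DMPK and MEIOSIN lie within 5 kb as well. SIX4, on chromosome 14, 60709539 to 60724351, had 1 peak of 18 tags (fold 8.19), 1454 bp inside the gene from its start. SIX2 and SIX6 had none, with the nearest suspended summit 61221 and 128741 bp away. In attached cells the nearest summit to SIX5 was 268276 bp away.

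Of the remaining POU genes, POU4F3, needed by hair cells of the inner ear, had a suspended peak of 16 tags (9.15 to 26.0) with a fold of 12.6. Its summit lay inside the gene on chromosome 5, 146338839 to 146341728, 1878 bp past the start, and within the read-through gene RBM27-POU4F3. POU6F1, on chromosome 12, 51186936 to 51218062, had a peak of 11 tags (fold 9.83), 6689 bp inside the gene from the nearer end. POU4F1 and the 4 POU3F genes had no peak, and POU3F4 was the member farthest from a suspended summit, at 2957227 bp.

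Among the LHX genes, which pair a homeodomain with LIM domains that bind cofactors such as LDB1, LHX3 was the one with a peak at its start. LHX3 acts in the pituitary and in motor neurons, and lies on chromosome 9, 136196250 to 136205128. The peak, at 136205050 to 136205341, held 15 tags (8.4 to 24.7) with a fold of 6.94 (FDR 2.82%), and lay within 5 kb of QSOX2. LHX9, a gene of gonad and forebrain, and LHX2, of eye, forebrain and hair follicle, each had a peak of 8 tags (3.45 to 15.8) inside the gene, with folds of 13.65 and 9.1, and the LHX2 peak had an FDR of 5.94%. At 8 tags, the fewest of any peak in the suspended list, these are at the limit of what was called.

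The DLX genes lie in facing pairs, and DLX1 and DLX2 act together in forebrain interneurons. Between them on chromosome 2 lay 2 suspended peaks, whose summits fall on either side of the 5 kb limit. The summit of the first, at 172094164 to 172094452 with 18 tags and a fold of 12.25, was 4610 bp from DLX1 and 5154 bp from DLX2. The summit of the other, at 172095076 to 172095363 with 15 tags and a fold of 7.65, was 4212 bp from DLX2 and 5552 bp from DLX1. DLX2 held a further peak of 11 tags (fold 11.7) inside the gene, 1860 bp past its start. DLX3, a gene of epidermis, hair and teeth on chromosome 17, 49990005 to 49995224, had the widest member peak, 738 bp with 44 tags (32.0 to 59.1), at a fold of 4.1 and 1412 bp outside the gene. DLX4, DLX5 and DLX6 had none.

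The TALE genes gave 4 peaks. IRX4, a gene of the heart ventricle on chromosome 5, 1877413 to 1887179, had 2 wide peaks of many tags and low fold, of 38 tags (26.9 to 52.2) in 593 bp with a fold of 3.78, and of 35 tags (24.4 to 48.7) in 472 bp with a fold of 4.12. They held more tags than most member peaks and ranked 8968 and 8877 of 9024 by fold. MEIS1 and PBX4, whose products belong to the families that bind DNA together with HOX proteins, had peaks of 10 tags (fold 8.19) and 8 tags (fold 11.07). The MEIS1 summit lay 1621 bp past the end of the gene, inside LINC01798, and that of PBX4 21773 bp inside the gene. The other 5 IRX genes, MEIS2, MEIS3, PBX2 and PBX3 had no peak.

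Summits at these genes lay inside the gene in 14 of 28 cases (30.6 to 69.4%), where 66.7% of 8134 gene and peak pairs over all protein-coding genes did. By gene, 11 of 76 had a summit inside (14.5%, background 20.3%). Only 5 of the 28 suspended summits (17.9%, 6.06 to 36.9) lay within 1 kb of an end of the member, those of LHX3, ISL2, SIX3, SIX5 and BARHL1, where 38.2% of the pairs over all genes did. Counted by gene, 5 of 76 members (6.58%, 2.17 to 14.7) had a peak within 1 kb of an end, against 13.8% of all. For genes with a span of at most 20 kb the shares of pairs were 5 of 22 (22.7%, 7.82 to 45.4) and 50.8% of 2576. This comparison describes 2 lists of summits and was not tested. The intervals treat summits as independent, though 5 of the genes held 2 or more of them, so they may be too narrow. The gap depended on the limit: within 0.5 kb the shares were 17.9% and 26.6%, and within 2 kb 42.9% (24.5 to 62.8) and 48.4%, with each of these backgrounds inside the members' interval. Of 19 peaks at the 15 genes with a listed start, 6 lay before the nearest start and 3 within 1 kb of it.

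**Figure D4:**
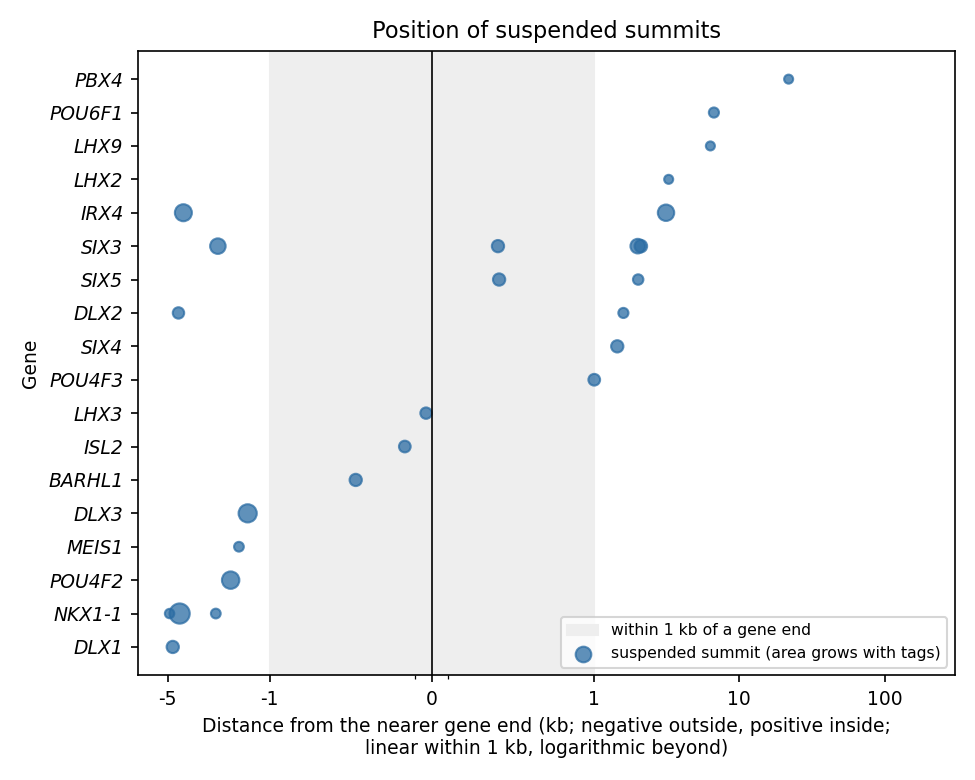
Distance of 26 of the 28 suspended summits from the nearer end of the homeobox gene, negative outside the gene and positive inside, on an axis that is linear within 1 kb and logarithmic beyond. The grey band holds the 5 summits within 1 kb of a gene end, and the point area grows with the number of tags.

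Of the 56 genes without a suspended peak, 19 had a suspended summit within 100 kb. None lay within 500 kb of 16, and none within 1000 kb of ISL1, LHX1, PBX2 and POU3F4. The same counts were not made for all genes without a peak. Within 1000 kb a summit was found for 94.7% of the 76 members and 94.4% of all protein-coding genes. Over all 76 genes the nearest suspended summit was within 100 kb for 51.3%, against 64.8% of all protein-coding genes, with a median distance of 89942 bp against 44887 bp. Among genes with a span of at most 20 kb the shares were 30 of 60 members and 63.5% of 9023. Within 10 kb the members of that span (26.7%) stood beside 26.4%. The shares parted at larger distances and were close again within 1000 kb (93.3% of members beside 93.7%). Just outside the 5 kb limit, LHX5 had a summit 8394 bp away, with 25 tags and a fold of 14.04, and TLX1 had 2, 6160 and 9192 bp away with folds of 6.14 and 7.3. PBX3 was the nearest protein-coding gene to the site of highest suspended fold, 49.16 with 45 tags, but at 115505 bp. In attached cells the same site held 22 tags at a fold of 43.1.

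**Figure D5:**
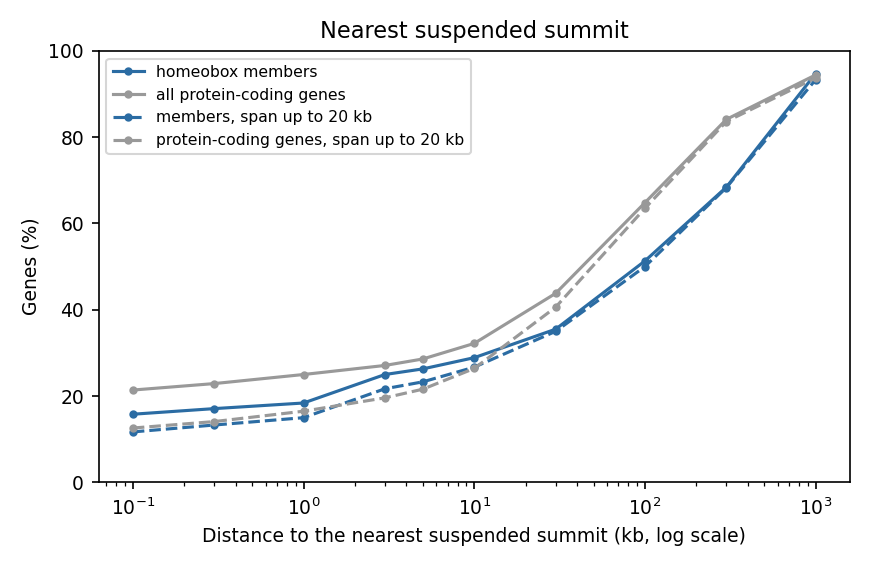
Cumulative percent of genes whose nearest suspended summit lies within a given distance (log axis), for the homeobox genes (blue) and all protein-coding genes (grey), with all spans (solid) and spans of at most 20 kb (dashed). At 100 kb the members reach 51.3% and all genes 64.8%. Among the shorter genes the lines lie close up to 10 kb and again at 1000 kb.

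Other genes of the same kind are given beside the members (20 of 76 in suspended and 4 of 76 in attached cells), with no test of the difference. Over all protein-coding genes the shares were 28.6% and 1.86%, and each list's intervals hold them. Of 68 other homeobox genes outside the HOX clusters 22 had a suspended peak (32.4%, 21.5 to 44.8) and 1, DRGX, an attached one. Their highest suspended folds were at PDX1 (14.16), a gene of the pancreas, GSX1 (13.87), BSX (13.41) and VAX2 (11.47). Of 16 genes of homeodomain cofactors 3 had a suspended peak, namely SSBP2 (fold 14.9), LMO4 (10.43) and LDB1 (6.3), and none an attached one. Of the 40 HOX cluster genes 15 (37.5%, 22.7 to 54.2) had a suspended peak and none an attached one. None had a suspended peak within 1 kb of a gene end, which allows a share of up to 8.81%, against 13.8% of all protein-coding genes. Neighbouring HOX genes share peaks, as do HMX2 and HMX3 of the other homeobox genes, so these counts are not of independent genes.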

How the data were processed

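ChIP-seq peaks of H1703 cells overexpressing SPIB were analysed as deposited. Per the file headers, the authors called peaks with MACS 1.4.2, separately for the ChIP library of each condition against its own input, at a p cutoff of 1e-05, with 1 tag kept per position and modelled fragment lengths of 58 (attached) and 63 bp (suspended). What the short fragment length does to widths and summits was not tested. The submitters' processing notes name hg38 as the build. The sources used here name no aligner. The deposited tag counts are ChIP tags per peak, not normalized. The authors' fold enrichment is a ratio to local background and their FDR a percent. The authors' score has lost its column name to a spreadsheet, and was taken as -10 log10(p) from its place in MACS output.

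Summits (start plus summit minus 1) were assigned to RefSeq gene spans of GRCh38.p14 with a flank of 5 kb, using Python 3.11.15, numpy 2.4.6, pandas 2.3.3, SciPy 1.17.1 and matplotlib 3.10.9. The assignment was tested on simulated data. Gene starts came from the RefSeq promoter windows, which gave a strand for 53 members. Shares carry exact Clopper-Pearson and tags exact Poisson 95% intervals, ratios of tags exact binomial ones, and no test was made between conditions with 1 ChIP library each. Members with a peak are named, except a few genes that are counted in the totals but not reported here. Of each other list at most 4 members are named by fold, besides the few chosen after their values were seen. The members and lists were chosen with earlier results of these data known.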

Additional observations from a re-analysis of the deposited data

How the results depend on the processing

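Of 25 alternatives to the 6 counts and medians, 19 stayed within 1.5 times the main count or within the main value's interval. The 20 members with a suspended peak became 11 with summits inside the gene span only (14.5%, background 20.3%) and 13 for the upper 50% of peaks by score (17.1%, background 18.0%), and lay between 14 and 22 under the other 6, 1 of which, members of at most 20 kb, was chosen after seeing the data. The 4 members with an attached peak became 0 with summits inside the gene span only (background 1.12%), 2 within 1 kb (2.63%, background 1.57%) and 1 at an FDR of at most 5% (1.32%, background 0.105%), and stayed 4 among members of at most 20 kb, a limit also chosen after seeing the data. They also stayed 4 for the upper 50% of peaks by score, where the background of 0.988% lay below the interval of 1.45 to 12.9. Within 10 kb, by any overlap and by nearest gene they stayed 4 too, with backgrounds of 2.15%, 1.86% and 1.56% inside the interval. The share of suspended summits near a gene end was 42.9% within 2 kb, beside 48.4% over all protein-coding genes. The median fold, the 3 shared sites and their tag ratio moved within their intervals or not at all under the 2 alternatives to each. For the tag ratio, 1 of these dropped every shared site whose attached FDR exceeded 50%, which left NKX1-1 alone. The ratio there, 1.75, is already the median of the 3. That alternative could not move the value and says nothing about its stability, though it counts among the 19. Fewer peaks or a narrower window lower a count by construction. No paired analysis was possible because each condition has 1 ChIP library.

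Depth limits single peaks: 10 of the 28 suspended peaks held at most 11 tags.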

Other observations

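Across 22183 promoter windows of protein-coding genes, 814 (3.67%, 3.43 to 3.93) held a suspended summit. Of the 585 windows with the longer ETS string GAGGAAGT, 62 did (10.6%, 8.22 to 13.4), and of the 78 with the left part of the REST element, TTCAGCACC, 18 did (23.1%). The joined element TTCAGCACCNNGGACAG, searched after its parts had been seen, was in 5 windows, and 4 of them held a suspended summit (80.0%, 28.4 to 99.5): those of LHX3, the homeobox gene BSX, the dopamine receptor gene DRD3 and the synaptic vesicle gene SYN1. The window of the glutamate receptor gene GRIA2 held none, and no attached summit lay in any of the 5. In attached cells 49 windows in all (0.221%) held a summit, 17 of them among the 585 with GAGGAAGT (2.91%) and 4 among the 78 with TTCAGCACC (5.13%).

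DRGX, a homeobox gene of sensory neurons and the dorsal spinal cord, was the only gene with an attached peak among the 68 other homeobox genes listed. That peak held 24 tags (fold 13.37, FDR 46.23%), and the suspended peak there 52 tags (fold 7.96, FDR 0.49%).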
